A study of Mus musculus with 12 samples.

Results

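The 9 genes described here make up the cap-binding step of translation and the kinases that act on it. They were picked by name, with earlier results of these data known though by a rule that uses no measured value, and all 9 were found among the 27179 gene IDs of the 12 count tables. They comprise the cap-binding proteins Eif4e and Eif4e2, the eIF4F subunits Eif4g1 and Eif4a1, the inhibitors Eif4ebp1 and Eif4ebp2, the eIF4E kinases Mknk1 and Mknk2, and Mapk3, which encodes ERK1.

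The libraries came from livers of 6 male C57BL/6 mice, each split on a sucrose gradient into a heavy and a light polysome pool, and total RNA was sequenced. Keto 1 and keto 2 were wild-type mice fed a ketogenic diet, which is rich in fat and low in carbohydrate, over 24 h by the protocol, while the time label of the samples reads 0 h. S209A 1 was a single chow-fed mouse that carried the eIF4E S209A change on both alleles. Chow 1, chow 2 and chow 3 were wild-type mice on chow. The S209A change replaces a serine in the protein, so gene counts could not check that genotype, and with 1 animal it has no replicate.

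eIF4E binds the cap of mRNAs and, with the scaffold eIF4G and the helicase eIF4A, forms the eIF4F complex that brings the small ribosomal subunit to the message. The 4E-BPs, when not phosphorylated by mTORC1, occupy the face of eIF4E that eIF4G needs. ERK and p38 activate the MNK kinases, which dock on eIF4G and phosphorylate eIF4E at the serine that S209A removes. The libraries measure the RNA of these genes, not their proteins or their phosphorylation.

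MYC and related factors bind the E-box CACGTG, and Eif4e is a long-known target of MYC. This palindrome, which reads the same on both strands, was searched in the 250 bases before each transcript start that the RefSeq promoter table (GRCm38.p6) lists, after those stretches had been read. The table lists several starts for some genes, and the Eif4e, Mknk1 and Eif4g1 stretches shown precede a start that lies inside the gene span. The motif was present in 4 of the 7 members that have an entry there, and in 6.86% of the 27025 genes of the table. Because it was picked from the members' own stretches, these shares do not test an enrichment. The 4 stretches are shown because they are the sequence feature that members of the complex and a kinase share, each 66 bases long, 5′ to 3′ on the strand of the gene, with the E-box in capitals. They lie on chr3:138527174-138527239 (plus strand), chr4:115839098-115839163 (plus), chr11:69672577-69672642 (minus) and chr16:20672643-20672708 (plus).
Eif4e: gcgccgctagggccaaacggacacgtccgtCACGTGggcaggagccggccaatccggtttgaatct
Mknk1: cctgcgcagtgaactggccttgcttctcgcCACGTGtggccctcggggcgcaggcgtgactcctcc
Eif4a1: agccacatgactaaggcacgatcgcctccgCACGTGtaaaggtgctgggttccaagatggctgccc
Eif4g1: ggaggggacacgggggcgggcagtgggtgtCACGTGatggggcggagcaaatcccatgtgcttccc
A match describes these letters and is not a measured binding site.

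The depth that bears on these mRNAs was small. Library totals were 3341046 to 13263355 counts, of which nuclear protein-coding genes held 4.09% to 39.2%, or 356544 to 1776829 counts. Mitochondrial rRNA took 12.1% to 74.2% of a library. Hepatocyte markers were present in every library, with a summed level of 41579 to 52708 CPM of protein-coding counts in keto, 58519 to 65927 in S209A and 42612 to 71346 in chow. Erythroid markers ran from 84.9 to 743 in keto, from 42.3 to 108 in S209A and from 25.9 to 150 in chow, and their part in the results was not tested. Titles call chow 3 and S209A fed, and the headers of their tables name another aligner than those of chow 1 and chow 2. The keto tables share neither header, so diet and file processing cannot be told apart. In bulk tissue, fewer cells of a type and less RNA per cell cannot be told apart either.

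**Figure D1:**
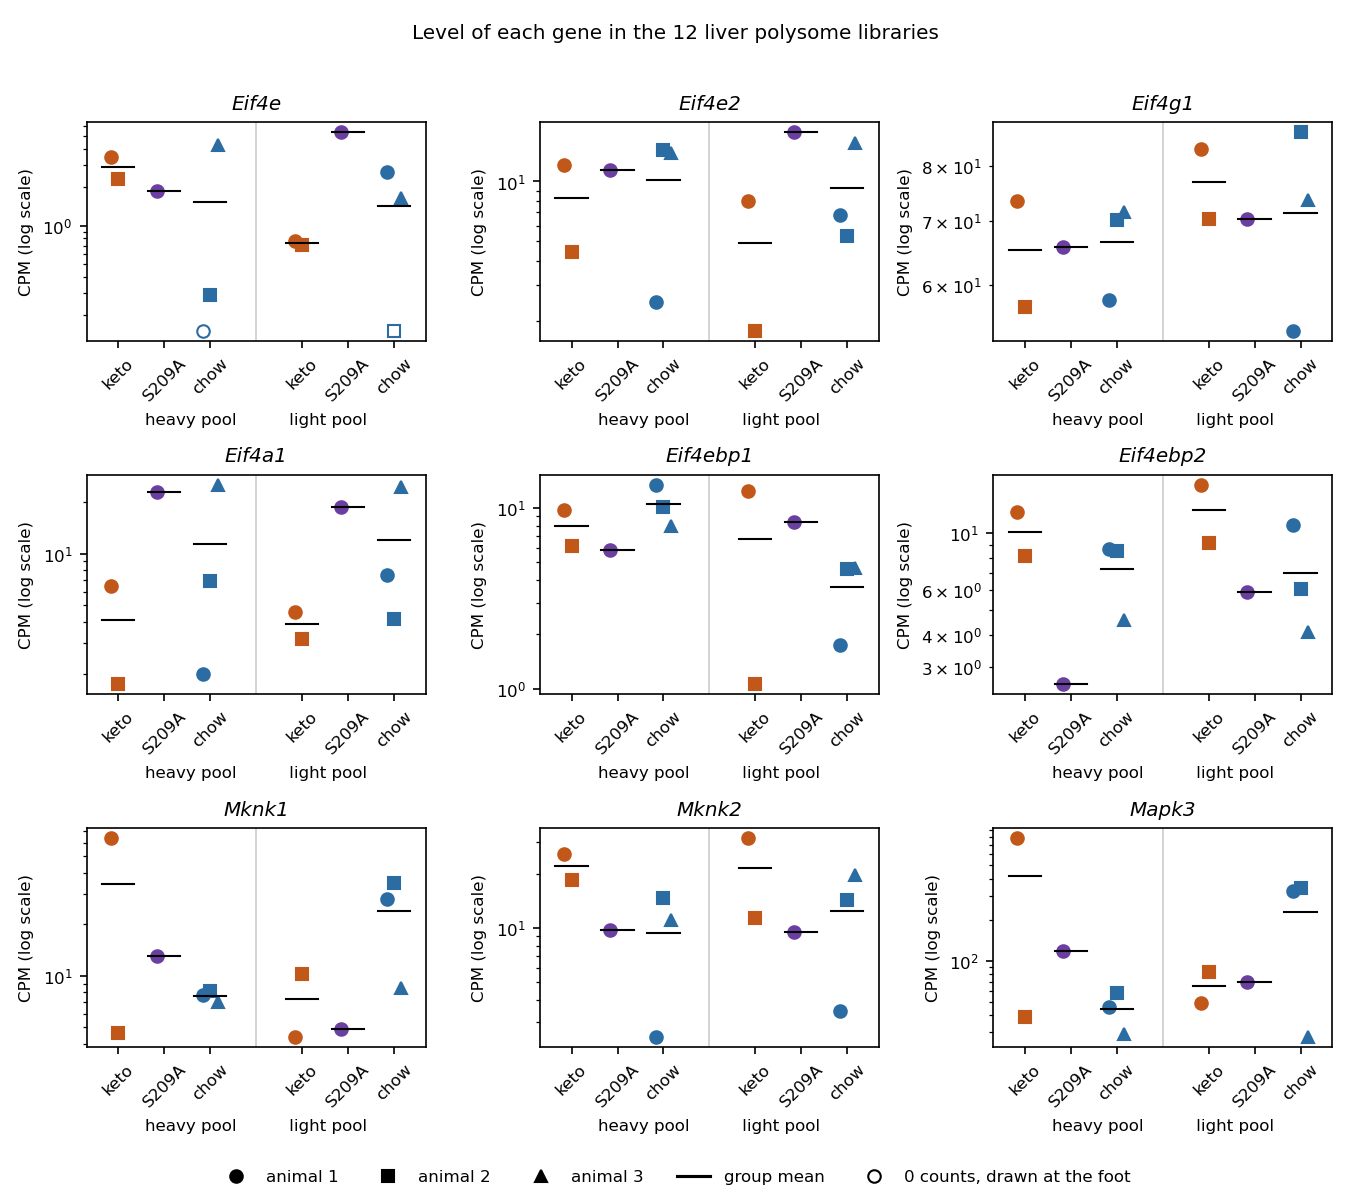
Level of each of the 9 genes in the 12 libraries, in CPM on a log axis (scaled by the trimmed mean of M-values, TMM), with the heavy pool left and the light pool right. Points are livers, bars are group means, and open points are libraries with 0 counts. Mapk3 and Mknk1 are high in the keto 1 heavy, chow 1 light and chow 2 light libraries, and the Eif4g1 points lie between 53.6 and 86.9 CPM.

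Mapk3 was the 1 member that passed a test, and its counts were higher in different pools in different livers. The tables hold 1 count per gene, so where along the gene those reads fell was not tested. Counts of Mapk3 (chromosome 7, 126759626 to 126765816 in GRCm38.p6, overlapping 0 other genes) in the heavy pool were 5043 and 200 in keto 1 and 2, 1150 in S209A, and 185, 398 and 401 in chow 1, 2 and 3. In the light pool they were 255 and 232 in keto, 547 in S209A, and 1850, 2355 and 353 in chow. ERK1 is one of the kinases at the end of the RAS, RAF and MEK cascade.

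Levels are given as CPM, a gene's count scaled to the TMM-adjusted total of its library, and heavy over light as a log2 difference of such levels. As CPM, Mapk3 stood at 793 and 38.6 in keto, 118 in S209A and 45.9, 57.7 and 29.2 in chow in the heavy pool. In the light pool it stood at 48.6 and 82.0 in keto, 70.3 in S209A and 322, 338 and 27.5 in chow. Single libraries thus stood far above the rest: keto 1 on the heavy side, and chow 1 and chow 2 on the light side. The highest library was 28.8 times the lowest. In keto 1 heavy, Mapk3 took 0.680% of protein-coding counts (95% exact binomial interval 0.661% to 0.698%, counting error only) and ranked 10 among protein-coding genes. In chow 1 light the share was 0.317% (0.303% to 0.332%, rank 22), and in chow 2 light 0.273% (0.262% to 0.285%, rank 33). In the other libraries the gene ranked 141 to 698.

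Over the 3 chow livers together Mapk3 was lower in heavy than in light. A gene is said to pass, or to be called, where the adjusted p of edgeR's quasi-likelihood test was under 0.05. Heavy over light per animal, on the log2 scale, was -2.80, -2.55 and 0.09 in chow 1, 2 and 3 (SD 1.60). The SE of a fitted heavy over light, like its p, rests on a spread that edgeR pulls toward that of the other genes. It is not the spread between the livers of a group, and can be smaller than that spread implies. Where each condition has its own pool effect, the single S209A liver adds nothing to the estimate. The fitted value was -1.82 ± 0.41 (SE, n = 3 animals, edgeR adjusted p = 0.0102), a 3.52-fold difference, and Mapk3 was the 1 member called there, where 0.227% of the 10555 genes tested were called. The call was lost without chow 1 (-1.24, edgeR adjusted p = 1) or without chow 2 (-1.38, edgeR adjusted p = 0.999), and without chow 3 the value was -2.71 (edgeR adjusted p = 5.90e-12). It was also lost in DESeq2 (-1.79, adjusted p = 0.237), among genes averaging at least 50 counts (-1.95, edgeR adjusted p = 0.379) and without the liver as a block (-2.37, edgeR adjusted p = 0.999). The call thus rested on both chow 1 and chow 2, and the value of chow 3 was near 0. Chow 1 and chow 2 share a title wording and an aligner that chow 3 does not. Differences between these livers and in file processing thus cannot be told apart.

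The keto livers lay on opposite sides. Heavy over light of Mapk3 was 4.02 in keto 1 and -1.08 in keto 2 (log2, SD 3.61). The fitted mean of 1.5 ± 0.62 (SE of the fit) did not pass (n = 2, edgeR adjusted p = 0.971), where 0.18% of all genes were called. Without keto 2 it was 4.03, and without keto 1 it turned to -1.09, each from a single keto liver and so given without a p. The difference between diets, keto minus chow in heavy over light, was log2 3.31 ± 0.74 (edgeR adjusted p = 0.0108), or 9.94-fold, where 0.189% of all genes were called. Keto 2 lay within the range of the chow livers, so that difference rested on keto 1. Without keto 1 it was 0.73 and without keto 2 5.84, each with a single keto liver left. Without chow 1 it was 2.74 (edgeR adjusted p = 0.440), without chow 2 2.88 (edgeR adjusted p = 0.693) and without chow 3 4.23 (edgeR adjusted p = 2.37e-11). It did not pass in DESeq2 (3.26, adjusted p = 0.401), among genes averaging at least 50 counts (3.43, edgeR adjusted p = 0.622) or without the liver as a block (5.04, edgeR adjusted p = 1).

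Mknk1, the MNK1 kinase that ERK activates (chromosome 4, 115837943 to 115879256), followed the same libraries. Its heavy counts were 406 and 24 in keto, 127 in S209A and 31, 56 and 96 in chow. Its light counts were 23 and 29 in keto, 38 in S209A and 162, 241 and 109 in chow. Keto 1 heavy was again the highest library and chow 1 and chow 2 light came next. Per animal the log2 heavy over light was 3.78 and -1.10 in keto, 1.37 in S209A and -1.84, -2.06 and -0.27 in chow. The fitted values were 1.49 ± 0.65 in keto (edgeR adjusted p = 1), -1.41 ± 0.42 in chow (edgeR adjusted p = 0.125) and 2.90 ± 0.78 for keto minus chow (edgeR adjusted p = 0.0776). None of the 3 passed, and the keto value turned to -1.14 without keto 1 and was 3.86 without keto 2, each from a single keto liver. The chow value passed without chow 3 (-2.02, edgeR adjusted p = 6.74e-04). The difference between diets was 0.27 without keto 1 and 5.27 without keto 2, each with a single keto liver left. It was 2.68 without chow 1 (edgeR adjusted p = 0.527) and 2.55 without chow 2 (edgeR adjusted p = 1). It passed in limma-voom (3.90, adjusted p = 0.00764) and without chow 3 (3.55, edgeR adjusted p = 1.37e-04).

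Set against the other protein-coding genes of the same liver with a mean of at least 50 counts (2841), Mapk3 and Mknk1 had heavy over light values at percentiles 99.96 and 99.93 in keto 1. In keto 2 they stood at 7.95 and 7.71, and in S209A at 86.5 and 96.6. In chow 1, 2 and 3 they stood at 0.704, 0.387 and 57.8 for Mapk3 and at 3.70, 1.16 and 27.6 for Mknk1. Both genes thus lay at the top in keto 1 and near the bottom in chow 1 and chow 2.

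**Figure D2:**
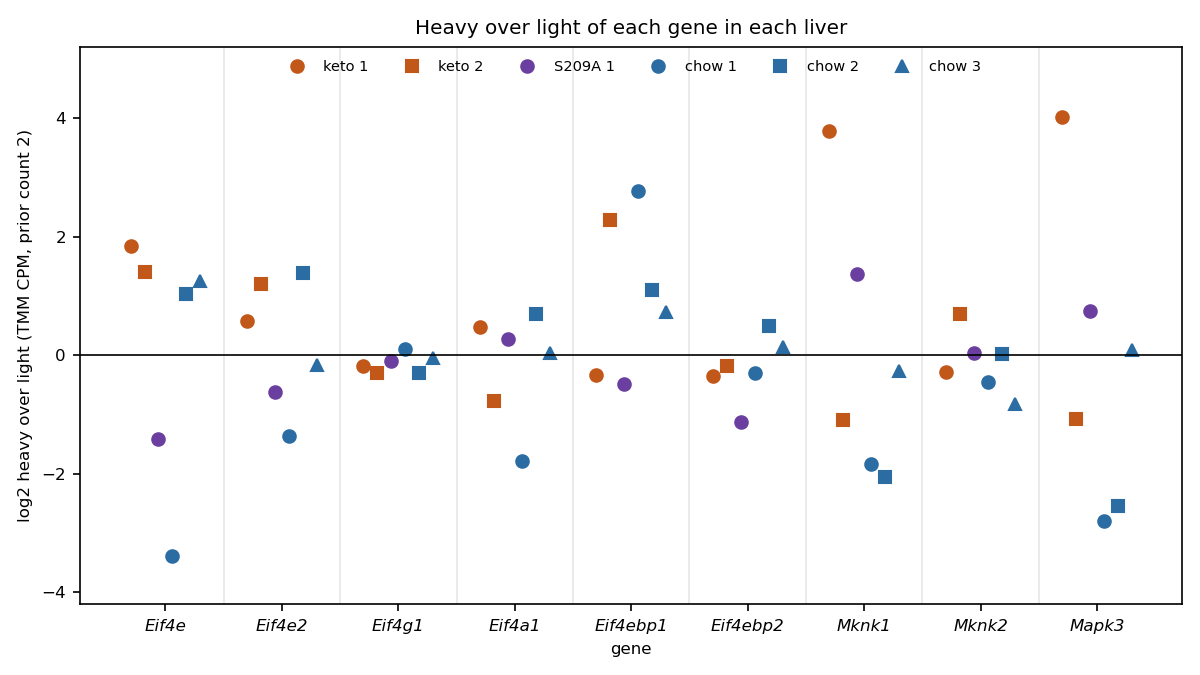
Heavy over light of each gene in each liver, as a log2 difference of TMM CPM with a prior count of 2. Colours give the condition and shapes the animal number. Mapk3 and Mknk1 lie near 4 in keto 1 and at or below -1.84 in chow 1 and chow 2, the Eif4g1 points lie between -0.31 and 0.11, and the Eif4e points of chow 1 and chow 2 each involve a library with 0 counts.

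Across the 12 libraries the gene whose log2 CPM was most like that of Mapk3 was Mknk1, and the gene most like Mknk1 was Mapk3 (Pearson r = 0.92 among 10080 protein-coding genes). The next genes were Amd1 (0.87) for Mapk3 and Khnyn (0.87) for Mknk1. The 12 libraries are pairs from 6 livers, so the r is a description, and 3 libraries hold most of the range. Counts of Mapk3 per count of Mknk1 were 12.4 and 8.33 in keto heavy, 9.06 in S209A heavy and 5.97, 7.11 and 4.18 in chow heavy. In the light pool they were 11.1 and 8.00 in keto, 14.4 in S209A and 11.4, 9.77 and 3.24 in chow. That ratio is not corrected for gene length, and it ran over a narrower range than either gene did. It was lowest in both libraries of chow 3.

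**Figure D3:**
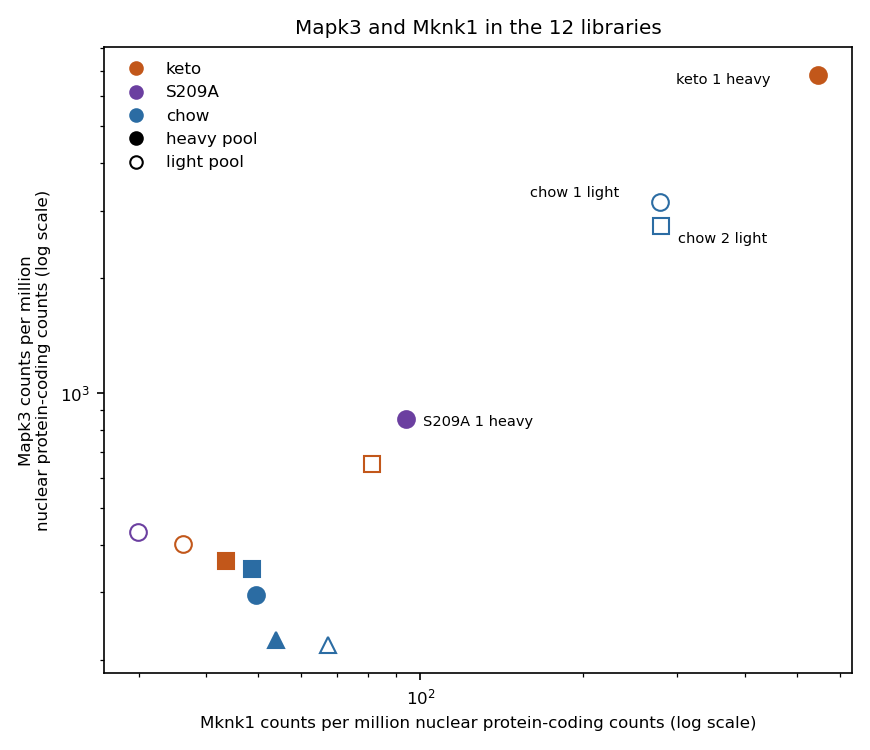
Mapk3 against Mknk1 in the 12 libraries, each as CPM of nuclear protein-coding counts on a log axis, with filled points for the heavy pool and open points for the light pool. Keto 1 heavy, chow 1 light and chow 2 light stand apart at the upper right, and the other 9 libraries lie below the level of those 3 on both axes.

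Mitochondrial rRNA differed between these libraries too. It held 47.3% of keto 1 heavy and 37.6% of keto 1 light, and 74.2% and 51.8% of keto 2 heavy and light. The heavy and light libraries of S209A held 12.6% and 12.1%. Those of chow 1 held 16.7% and 58.2%, those of chow 2 held 12.9% and 52.6%, and those of chow 3 held 13.8% and 13.5%. The pool with more mitochondrial rRNA was the pool with more Mapk3 by CPM in keto 1, S209A, chow 1, chow 2 and chow 3, and not in keto 2. In S209A and chow 3 the pools were close in mitochondrial rRNA, and in chow 3 also in Mapk3 (29.2 and 27.5 CPM). The part of mitochondrial rRNA in the result was not tested.

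Mknk2, the other eIF4E kinase, did not follow Mknk1 (chromosome 10, 80665318 to 80676293). It had 165 and 96 counts in keto heavy, 95 in S209A heavy and 10, 101 and 152 in chow heavy, against 166 and 32 in keto light, 74 in S209A light and 20, 100 and 253 in chow light. Per animal the log2 heavy over light was -0.28 and 0.70 in keto, 0.04 in S209A and -0.44, 0.03 and -0.82 in chow. Each value lay within 1 log2 unit of 0, and the signs were mixed within both diets. As CPM, Mknk2 averaged 22.2 ± 5.23 in keto heavy and 9.40 ± 6.25 in chow heavy (SD, n = 2 and n = 3), log2 1.22 ± 0.63 (edgeR adjusted p = 0.643). The gene most like Mknk2 over the libraries was Gpat4 (r = 0.96).

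Between diets within the heavy pool, edgeR called 0% of 10552 genes at an adjusted p under 0.05 (862 at an unadjusted p under 0.05, and DESeq2 called 111). Mapk3 stood at log2 3.23 ± 0.90 (keto over chow, edgeR adjusted p = 0.478) and Mknk1 at 2.17 ± 0.77 (edgeR adjusted p = 0.512). Mapk3 passed with DESeq2 (3.23, adjusted p = 0.0183) and without chow 3 (3.03, edgeR adjusted p = 0.0319). It also passed with the wording of the titles as a batch (3.0, edgeR adjusted p = 0.0229). That setting leaves keto against chow 1 and chow 2, as dropping chow 3 does, so it is no separate check. It turned to -0.20 without keto 1, and Mknk1 to -0.71. In the light pool edgeR called 0% of 10551 genes (640 at an unadjusted p under 0.05, and DESeq2 called 0). Mapk3 stood there at -1.82 ± 0.92 and Mknk1 at -1.73 ± 0.67 (edgeR adjusted p = 0.796 for both).

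**Figure D4:**
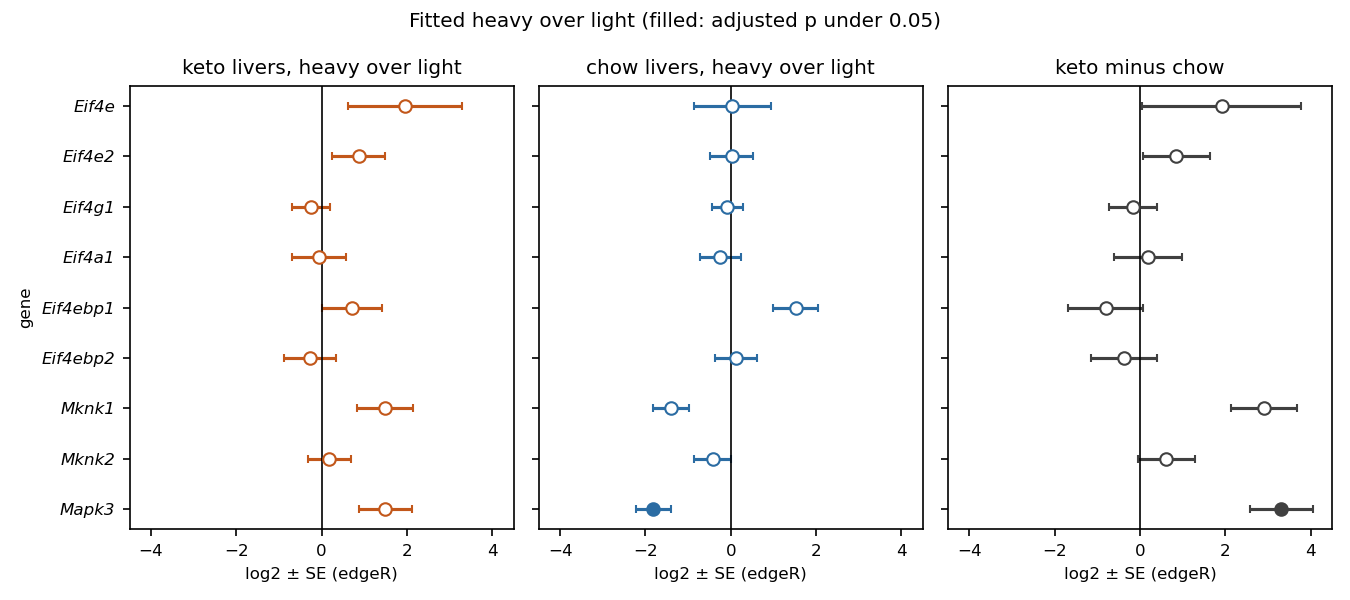
Fitted heavy over light of each gene in keto livers, in chow livers and as the difference keto minus chow (log2 ± SE, edgeR), with filled points where the adjusted p was under 0.05. Mapk3 is filled in chow livers (-1.82) and in the difference (3.31), and the other points are open.

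Eif4e itself was thinly counted (chromosome 3, 138526191 to 138559696). Its heavy counts were 22 and 12 in keto, 18 in S209A and 0, 2 and 59 in chow, and its light counts were 4 and 2 in keto, 42 in S209A and 15, 0 and 21 in chow. Keto livers held more of it in heavy than in light, S209A less, and chow livers were mixed. Per animal the log2 heavy over light was 1.85 and 1.40 in keto, -1.42 in S209A and 1.26 in chow 3. The keto values rest on 4 and 2 light counts, so their size depends on the prior count. In chow 1 the light level was 2.61 CPM, and 0 counts in heavy allow up to 3 counts or 0.745 CPM. Heavy was thus at least 3.50-fold lower if the light level is taken as measured. That figure covers the counting error of heavy only, and leaves out that of the 15 light counts. In chow 2 both pools were at or under 3 counts, so no fold is given, and the point drawn for it rests on the prior count. The fitted keto value was 1.95 ± 1.34 and keto minus chow was 1.92 ± 1.86 (edgeR adjusted p = 1 and 0.972), with wide errors. The difference between diets was not called.

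Eif4e2, the cap-binding paralog also called 4EHP that is known for repressing translation, was deeper (chromosome 1, 87213911 to 87240488). It had 77 and 23 counts in keto heavy, 111 in S209A heavy and 10, 99 and 190 in chow heavy, against 42 and 5 in keto light, 138 in S209A light and 39, 37 and 200 in chow light. The log2 heavy over light was 0.58 and 1.21 in keto, -0.62 in S209A and -1.36, 1.39 and -0.17 in chow. Both keto livers were positive, while the chow livers gave both the lowest and the highest value. The fitted keto value was 0.87 ± 0.63 and the chow value 0.02 ± 0.50 (edgeR adjusted p = 1 and 0.999).

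Eif4g1, the scaffold, varied least among the members (chromosome 16, 20672720 to 20692883). It had 468 and 294 counts in keto heavy, 639 in S209A heavy and 233, 484 and 983 in chow heavy, against 438 and 199 in keto light, 548 in S209A light and 308, 605 and 946 in chow light. As CPM the heavy values were 65.2 ± 11.9 in keto and 66.6 ± 7.58 in chow, with 65.7 in S209A (SD, n = 2, 3 and 1). The light values were 76.9 ± 9.30 in keto and 71.4 ± 16.8 in chow, with 70.4 in S209A. The highest library was 1.62 times the lowest, against 28.8 for Mapk3 and 14.6 for Mknk1. Heavy over light lay between -0.31 and 0.11 in the 6 livers, and the keto minus chow difference was -0.16 ± 0.57 (edgeR adjusted p = 0.992). TMM scaling assumes that most genes do not move, so this small range is relative to the other genes of a library.

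Eif4a1, the helicase that unwinds structure ahead of the small ribosomal subunit, differed mainly between sets of libraries (chromosome 11, 69666936 to 69672423). It had 41 and 9 counts in keto heavy, 221 in S209A heavy and 8, 48 and 344 in chow heavy, against 24 and 9 in keto light, 146 in S209A light and 43, 29 and 313 in chow light. As CPM the 4 libraries whose titles say fed, both of S209A and both of chow 3, lay at 18.8 to 25.1, above the 1.74 to 7.48 of the other 8. Of all genes tested, 3.33% lay above in that way and 2.75% below. Keto over chow in the light pool was log2 -1.62 ± 0.75 (edgeR adjusted p = 0.796), with 4.58 and 3.18 CPM in keto 1 and 2, against 7.48, 4.17 and 24.4 in chow 1, 2 and 3. Without chow 3 it was -0.55 (edgeR adjusted p = 0.959). The wording of the titles as a batch leaves keto against chow 1 and chow 2 in the same way, so its -0.55 (edgeR adjusted p = 0.952) is no separate check. The annotation also lists 3 small nucleolar RNAs that overlap Eif4a1, and how the counting treated shared reads is not given in the sources used here.

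Eif4ebp1 encodes the inhibitor 4E-BP1 (chromosome 8, 27260327 to 27275656). It had 62 and 32 counts in keto heavy, 57 in S209A heavy and 54, 70 and 109 in chow heavy, against 65 and 3 in keto light, 65 in S209A light and 10, 32 and 60 in chow light. The log2 heavy over light was -0.34 and 2.27 in keto, -0.49 in S209A and 2.76, 1.10 and 0.73 in chow. The 2.27 of keto 2 rests on 3 light counts, so its size depends on the prior count. All 3 chow livers held more in heavy, as did keto 2, while keto 1 and S209A held slightly less. Over all 6 livers the value was 0.92 ± 0.42 (edgeR adjusted p = 0.998, unadjusted p = 0.0350), and in chow 1.52 ± 0.53 (edgeR adjusted p = 0.296). Over the 6 livers edgeR called 0.0284% of all genes and 0 of the 9 members.

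Eif4ebp2 encodes the related 4E-BP2 (chromosome 10, 61428491 to 61452790). It had 77 and 42 counts in keto heavy, 25 in S209A heavy and 35, 59 and 63 in chow heavy, against 81 and 26 in keto light, 46 in S209A light and 62, 42 and 53 in chow light. The log2 heavy over light was -0.34 and -0.17 in keto, -1.12 in S209A and -0.30, 0.48 and 0.14 in chow. As CPM it ran opposite to Eif4a1 in the title split, at 2.57 to 5.91 in the libraries titled fed and 6.04 to 15.4 in the other 8. Over the 12 libraries the log2 CPM of Eif4ebp2 and Eif4a1 had a Pearson r of -0.67, and that of Eif4e2 and Eif4a1 had 0.81, as descriptions. Keto over chow for Eif4ebp2 was log2 0.49 ± 0.58 in heavy and 0.84 ± 0.56 in light (edgeR adjusted p = 0.879 and 0.826).

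The S209A liver was set beside the 3 chow livers as values with no test. Its heavy over light lay outside the chow range for 5 of the 9 members. It was above for Mknk1 (1.37, chow -2.06 to -0.27), Mapk3 (0.75, chow -2.80 to 0.09) and Mknk2 (0.04, chow -0.82 to 0.03), and below for Eif4ebp1 (-0.49, chow 0.73 to 2.76) and Eif4ebp2 (-1.12, chow -0.30 to 0.48). Of all genes tested, 30.6% lay above the chow range in that measure and 24.6% below, so 5 of 9 outside is near the share of genes at large. Against chow 3 alone, which shares the title wording, the difference in heavy over light was 1.64 for Mknk1 and 0.66 for Mapk3, while against the mean of the 3 chow livers it was 2.76 and 2.5.

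By level, the S209A heavy pool lay above the chow range for Mapk3 (118 CPM, chow 29.2 to 57.7) and Mknk1 (13.1 CPM, chow 7.00 to 8.12). It lay below for Eif4ebp1 (5.86 CPM, chow 7.95 to 13.4) and Eif4ebp2 (2.57 CPM, chow 4.59 to 8.69), against 22.5% of all genes above and 17.1% below. The S209A light pool lay above for Eif4e (5.40 CPM, chow 0 to 2.61), Eif4e2 (17.7 CPM, chow 5.32 to 15.6) and Eif4ebp1 (8.35 CPM, chow 1.74 to 4.68). It lay below for Mknk1 (4.88 CPM, chow 8.49 to 34.6), against 27.3% of all genes above and 30.7% below. Eif4e, the gene that carries the mutation, had its highest CPM of the 12 libraries in the S209A light pool, from 42 counts. Chow 3 heavy came next, at 4.30 CPM from 59 counts. As a share of protein-coding counts, Eif4e was at 0.00331% in S209A light (95% exact binomial interval 0.00238% to 0.00447%). In chow 3 heavy that share was 0.00332% (0.00253% to 0.00428%). Which of these libraries stood highest thus depended on the scaling, and the intervals overlapped.

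The rest of the pathway was read from 6 lists of 109 genes: eIF4F partners and paralogs, the kinase cascade above the MNKs, ERK feedback and response genes, the mTORC1 pathway above the 4E-BPs, AMPK subunits with LKB1, and mRNAs reported to depend on eIF4E. Of these, 88 passed the filter on low counts, and edgeR called 0 higher and 0 lower in each of the 6 comparisons, with 1 to 5 of the 88 at an unadjusted p under 0.05. Of the 10551 to 10555 genes tested in these comparisons, 359 to 862 were at an unadjusted p under 0.05. For heavy over light over all 6 livers, list medians ran from -0.16 to 0.24, beside -0.01 for all genes. For keto minus chow they ran from -0.16 to 0.22, beside 0.15 for all genes.

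Among the deeper counted genes of each list, those with the highest and lowest heavy over light over all 6 livers follow, and none passed (edgeR adjusted p = 0.998). Eif4ebp3, the remaining 4E-BP, stood at log2 0.94 ± 0.33, and Zfp598, a sensor of collided ribosomes, at -0.27 ± 0.31. In the kinase cascade the MEK1 gene Map2k1 stood at 0.30 ± 0.34 and the EGF receptor gene Egfr at -0.53 ± 0.31. The immediate early gene Jun, the sole ERK response gene counted deeply enough, stood at 0.57 ± 0.39. In the mTORC1 list Akt1s1, which encodes PRAS40, stood at 0.60 ± 0.32, and Rptor, which encodes raptor, at -0.14 ± 0.32. In the AMPK list the LKB1 partner gene Cab39 stood at 0.25 ± 0.34, and Stk11, which encodes LKB1, at -0.27 ± 0.31. Among the mRNAs reported to depend on eIF4E, the clock gene Per2 stood at 0.51 ± 0.31 and the inhibitor of NF-kappaB Nfkbia at -0.23 ± 0.31.

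Apart from Mapk3 and Mknk1, the 7 members ran from log2 -1.62 to 1.95 over the 6 comparisons, and none passed (lowest edgeR adjusted p = 0.296). No member kept 1 sign of heavy over light in all 6 livers, a pattern that 1.53% of all genes showed on the higher side and 1.88% on the lower. The genes most like other members over the 12 libraries, by Pearson r of log2 CPM, were Oaz2 for Eif4e (0.92), Mrpl52 for Eif4e2 (0.94) and Atad3a for Eif4a1 (0.95). For the inhibitors they were Ccl25 for Eif4ebp1 (0.93) and Dnlz for Eif4ebp2 (0.92). Oaz2, Mrpl52, Ccl25 and Dnlz averaged 13.3, 29.6, 5.83 and 28.0 counts, so their likeness rests on few counts.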

How the data were processed

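Each library has its own deposited table of raw counts, whole numbers per gene under Entrez numbers, which entered the tests unchanged. The submitters' processing notes name Trimmomatic, HISAT2 and StringTie and the build mm10. Per the file headers, Bowtie2 aligned chow 1 and chow 2, and HISAT2 aligned chow 3 and S209A. For versions, the counting tool, its strand setting and its treatment of reads with several matches, the answer is not given in the sources used here. RefSeq's table of GRCm38.p6 named 25275 of the 27179 IDs, leaving 1904 without a name. Unused columns of values numbered 0.

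The filter filterByExpr (minimum 10 counts) kept 10555 genes and all 9 members. TMM scaling and the two-sided quasi-likelihood test of edgeR 4.0.16 (R 4.3.3), with Benjamini-Hochberg adjustment over all genes and a threshold of 0.05, gave the results. Heavy and light come from the same liver by their labels, so the liver was a block (same-liver deviations from the chow means correlated at r = 0.307, 0.305 and 0.463). Diets were compared within each pool. SE is the log2 change over the square root of F of the fit, not the spread between livers, and ratios per liver used a prior count of 2. DESeq2 1.42.0, limma-voom 3.58.1, other scalings and filters, and left-out livers were alternatives.

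The members and lists were chosen with earlier results of these data known. Other genes were named by rule: in each list the highest and lowest heavy over light over all 6 livers among genes averaging at least 50 counts, and for each member the gene with the highest correlation, which for Eif4g1 is not reported here. The E-box was chosen after the promoter stretches were read.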

Additional observations from a re-analysis of the deposited data

Results flagged for a closer look

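The difference between diets in heavy over light of Mapk3 stood out by the test of the difference itself (log2 3.31, keto minus chow, edgeR adjusted p = 0.0108). Without keto 1, with a single keto liver left, it was 0.73. In the S209A liver, heavy over light of Mknk1 was 1.37 while the 3 chow livers were all negative, and this difference was not tested. In the same liver, heavy over light of Eif4ebp1 was -0.49 while the 3 chow livers were all positive, and this difference was not tested either. Of all genes tested, 30.6% lay above the chow range in the S209A liver in that measure and 24.6% below, so a place outside that range is common.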

How the results depend on the processing

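Of the values of single members under other settings, 552 kept their direction and side of the threshold, 48 turned sign, 12 gained a call and 11 lost a call. A value without an adjusted p was counted as not called. DESeq2 gave none for most members in chow and in keto minus chow. The gained and lost calls include fits that left a single keto liver, which carry no weight as tests. The cause of these changes was not tested. Genes called over all genes (3 over all 6 livers, 24 in chow, 19 in keto, 20 for keto minus chow, 0 in each pool between diets) numbered 14 in DESeq2, 1 with TMM on protein-coding genes, 15 without the filter and 0 above a mean of 50 counts for all 6 livers. For chow they numbered 97 in DESeq2, 11 without the filter and 0 above 50 counts. For keto they numbered 0 in DESeq2, 0 above 50 counts and 7 in limma-voom, and for keto minus chow 0 above 50 counts. Between diets the heavy pool had 111 in DESeq2, 112 without the filter, 4 in limma-voom and 126 with the title batch, and the light pool 39 without the filter. The title batch sets chow 3 aside, much as leaving it out does. With no replicate block (the liver left out), each of the 4 comparisons of heavy over light had 0, and 0 members. Members called in chow (1) and in keto minus chow (1) numbered 0 in DESeq2 and 0 above 50 counts, with 2 in limma-voom for keto minus chow. In the heavy pool 0 became 1 in DESeq2, 2 without the filter (Mapk3 at 3.21 and Mknk1 at 2.15) and 1 with the title batch. Above 50 counts Mapk3 stood at -1.95 in chow and 3.43 for keto minus chow, and with no replicate block at -2.37 and 5.04, without a call. The replicate number of the titles does not pair diets (r of same-number deviations -0.067 and 0.046 in heavy, -0.049 and 0.0076 in light). As a replicate block across diets it gave 83 genes in heavy, 5 in light, and 1 member in light (Mapk3 at -2.39, edgeR adjusted p = 0.0421).

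Signs also turned with all livers kept. Over all 6 livers Eif4a1 stood at 0.075 in limma-voom and 0.036 with no replicate block, and Mknk1 at 0.085 and 0.13. In keto, Eif4a1 stood at 0.14 and 0.073 in these settings, and in chow Eif4e2 at -0.080 above 50 counts. In the heavy pool Eif4e2 stood at 0.20 (replicate block) and Eif4g1 at 0.14 (above 50 counts), 0.021 (replicate block) and 0.026 (title batch), and in the light pool Eif4e at 0.19 (limma-voom).

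With each liver left out in turn, genes called ran from 0 to 19 over all 6 livers, 4 to 402 in chow (402 without chow 3), 7 to 10 in keto, 0 to 211 for keto minus chow (211 without chow 3) and 0 to 108 in heavy between diets (108 without chow 3). Members called ran from 0 to 2 in chow, keto and keto minus chow, and from 0 to 1 in heavy. Over all 6 livers the values that turned ran from -0.075 to 1.05 (Eif4e), -0.13 to 0.41 (Eif4e2), -0.27 to 0.21 (Eif4a1), -0.83 to 0.29 (Mknk1), -0.30 to 0.0090 (Mknk2) and -1.12 to 0.094 (Mapk3). In chow they ran from -1.63 to 1.75 (Eif4e), -0.73 to 0.59 (Eif4e2), -0.17 to 0.016 (Eif4g1), -0.77 to 0.36 (Eif4a1) and -0.094 to 0.33 (Eif4ebp2). In keto they ran from -0.87 to 0.49 (Eif4a1), -0.35 to 2.52 (Eif4ebp1), -1.14 to 3.86 (Mknk1), -0.29 to 0.71 (Mknk2) and -1.09 to 4.03 (Mapk3). For keto minus chow they ran from -0.62 to 0.74 (Eif4a1) and -1.86 to 1.0 (Eif4ebp1). Between diets in heavy they ran from -1.22 to 0.23 (Eif4e2), -0.23 to 0.14 (Eif4g1), -0.71 to 3.07 (Mknk1) and -0.20 to 4.16 (Mapk3), and in light from -0.063 to 0.25 (Eif4g1), -1.82 to 1.76 (Eif4ebp1) and -0.19 to 1.35 (Mknk2).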
